A study of Homo sapiens with 6 samples.

Results

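Genes that set 2 PPP2R1A-low libraries of MiaPaCa2 cells apart from 4 other libraries were collected. MiaPaCa2 is a human pancreatic ductal adenocarcinoma (PDAC) cell line, and all cells here carried CasRx, an RNA-cutting enzyme of the Cas13d family. The 3 control libraries, labelled WT, came from cells without a guide, and the 3 knockdown libraries, labelled KD, came from cells with a lentiviral guide against PPP2R1A. The libraries were chosen by their PPP2R1A level: knockdown 1 and 2 are the low libraries, and controls 1, 2 and 3 together with the library labelled knockdown 3 are the others. A gene was taken where both low libraries lay above, or both below, all 4 others in CPM (counts scaled to a common library size, with TMM factors). The table held 13359 genes whose mean reached 1 CPM, and 5579 of them met this rule. Since the rule used the same CPM values, the levels of these genes are a description, with no test.

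PP2A is a serine/threonine phosphatase built of a scaffold subunit, a catalytic subunit and 1 of many regulatory subunits that direct it to its substrates. PPP2R1A encodes the main scaffold, and without a scaffold the other subunits do not join. The enzyme removes phosphates from many kinases and transcription factors, and as part of the Integrator complex it acts on paused RNA polymerase II.

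The study's knockdown rested on 1 guide and a stable, puromycin-selected population, and its controls received no non-targeting guide in the description used here, so the guide and its selection cannot be told apart from the loss of PPP2R1A. Each library is a bulk of cells, in which fewer cells that express a gene and less RNA per cell cannot be told apart. The guide and the site it pairs with are shown because they mark where the targeted RNA is cut. The site lies in the 3′ untranslated region of PPP2R1A, in exon 15 of 15 (chr19:52226351-52226373, plus strand, GRCh38, GENCODE annotation). An exact match was found in 3 transcripts, all of 1 gene. The spacer pairs with the site over its whole length of 23 bases, and both are written 5′ to 3′.
guide spacer: gaataaaataaaaacggcacagt
target site: actgtgccgtttttattttattc

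PPP2R1A stood at 583, 616 and 643 CPM in controls 1, 2 and 3, at 143 and 146 CPM in knockdown 1 and 2, and at 547 CPM in the library labelled knockdown 3. The low libraries averaged 144 ± 1.87 CPM (SD, n = 2) and the others 597 ± 41.8 CPM (SD, n = 4), a ratio of 4.14. The library labelled knockdown 3 therefore lay near the controls, and its label goes against its PPP2R1A level. The study describes samples collected over several weeks and a weaker knockdown at the last time point, so among the knockdown libraries PPP2R1A level and collection time cannot be told apart.

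The 4 others were not alike. Controls 1 and 2 differed at least 2-fold in 884 genes, and each differed from the library labelled knockdown 3 in 774 and 819 genes, while control 3 differed from these 3 libraries in 1922 to 2102 genes. The low libraries differed from each other in 731 genes and from the others in 2041 to 2753. The 4 others thus held 3 libraries close to each other and control 3 apart from them. Total counts ranged from 28499214 to 45040033 per library. Of markers of other cell types in the table, 6 of 10 endothelial, 6 of 12 leukocyte and 11 of 13 acinar and hormone genes had 0 counts in all 6 libraries, PECAM1, PTPRC and PRSS1 among them. CDH1 and EPCAM, which mark differentiated epithelium, had 8 counts and 1 count in the low libraries together and 0 in the others.

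Above all 4 others lay 2955 genes (22.1% of those measured), and below them 2624 (19.6%). Most of these gaps were small: the median gap, taken from the nearest low library to the nearest other library as log2 of CPM + 0.5, was 1.20-fold on the higher side and 1.19-fold on the lower. A gap of at least 2-fold was left for 412 higher genes (3.08%) and 239 lower genes (1.79%). At 10-fold there were 32 higher and 37 lower genes, and at 100-fold 5 and 2. Of the 651 genes with a 2-fold gap, 364 of the 412 higher and 226 of the 239 lower are protein-coding in RefSeq. The share over all measured genes is not given here, so these counts are no trait of the 2-fold genes. With library size as the only scaling, the median log2 difference over all genes shifted by 0.11, and the counts were 3944 higher and 1879 lower genes (67.7% higher in place of 53.0%), or 483 and 214 with a 2-fold gap, so the balance between the directions depends on the scaling.

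**Figure D1:**
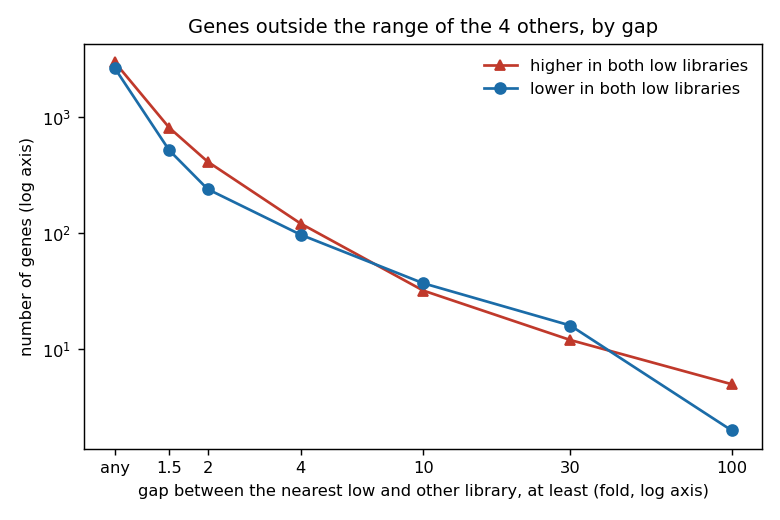
Number of genes (vertical, log axis) for which both low libraries lay outside the range of the 4 others by at least the fold on the horizontal axis (log axis, CPM + 0.5), higher as triangles and lower as circles. The 2955 higher and 2624 lower genes shrink to 412 and 239 at 2-fold and to 32 and 37 at 10-fold.

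At the edge of the rule the values touch. PIGG, just inside, had 47.1 CPM in control 2 and 47.1 and 48.5 CPM in the low libraries. TRMT1, just outside, had 95.9 CPM in the library labelled knockdown 3 and 95.9 and 113 CPM in the low libraries. On the lower side DAXX, just inside, had 74.3 CPM in the library labelled knockdown 3 against 74.3 and 67.6 CPM, while EPHA7, just outside, had 0 CPM in control 1 and in both low libraries.

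For the 2-fold genes the rule itself placed the library labelled knockdown 3 on the side of controls 1 and 2. It lay within 2-fold of their mean for 401 of 412 higher and 232 of 239 lower genes, against 293 and 179 for control 3. The low libraries lay within 2-fold of each other for 402 and 226. Over all 13359 genes, the library labelled knockdown 3 differed at least 2-fold from controls 1 and 2 in 774 and 819. The low libraries differed from each other in 731. Closeness of both kinds was thus found over all genes and is no trait of these. The other library nearest to the low pair was control 1, 2 or 3 for 100, 85 and 102 higher genes and the library labelled knockdown 3 for 125, and for the lower genes these counts were 62, 60, 71 and 46. No single library therefore stood at the edge for most of them.

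The largest higher gaps held genes that were near 0 in all 4 others. KITLG, the ligand of the receptor tyrosine kinase KIT, had 0 CPM in all 4 and 129 and 118 CPM in the low libraries, at least 5388-fold higher (floor of 3 counts over the 4 libraries, as for each bound here). Its receptor KIT had 0 counts in all 6 libraries. NR5A2, a nuclear receptor of pancreas and liver, had at most 0.0347 CPM in the others against 123 and 74.8 CPM (ratio of the means 6323, 95% counting interval 1750 to 52222). TM4SF4, a membrane protein of the tetraspan family, had 3 counts, all in the library labelled knockdown 3 (0.0706 CPM), against 69.6 and 78.7 CPM (ratio 3274, interval 1120 to 15879). These intervals and floors cover counting error only.

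A pair of promoters shows how unlike the start sites of these genes are. The 250 bases before the RefSeq start (GRCh38.p14) are given with each CG in capitals. KITLG has 26 CG in this stretch and NR5A2 has 0. The start used in these cells may be another.
KITLG (chr12:88580472-88580721, minus strand): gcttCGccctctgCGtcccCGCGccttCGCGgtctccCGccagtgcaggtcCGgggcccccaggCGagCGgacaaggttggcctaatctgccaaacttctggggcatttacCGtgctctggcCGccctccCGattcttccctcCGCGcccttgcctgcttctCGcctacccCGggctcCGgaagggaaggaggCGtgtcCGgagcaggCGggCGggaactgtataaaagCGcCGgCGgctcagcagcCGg
NR5A2 (chr1:200027460-200027709, plus strand): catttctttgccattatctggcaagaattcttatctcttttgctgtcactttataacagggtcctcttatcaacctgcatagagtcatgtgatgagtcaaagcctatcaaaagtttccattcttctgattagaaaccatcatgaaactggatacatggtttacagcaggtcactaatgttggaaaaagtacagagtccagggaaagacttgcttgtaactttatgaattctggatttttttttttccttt

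Proteases, receptors and a cytokine were among the next genes on the higher side. The collagenase MMP1 had 0.834, 0.641 and 0 CPM in controls 1, 2 and 3 and 1.01 CPM in the library labelled knockdown 3, against 189 and 368 CPM in the low libraries (448-fold). MMP3, a stromelysin, had at most 0.353 CPM in the others against 84.9 and 213 CPM. In both genes knockdown 2 was the higher of the low pair. NRP2, a co-receptor of semaphorins and VEGF-C, had 0.313 CPM in control 1, 0 in the other three and 77.6 and 81.7 CPM in the low libraries (1019-fold, a ratio that rests on control 1). GDF15, a stress-induced cytokine of the TGF-beta superfamily, had 0.342 to 1.55 CPM against 108 and 107 CPM (115-fold). The cadherin CDH13, which lacks a cytoplasmic tail, had at most 0.0347 CPM against 17.3 and 14.7 CPM (ratio 1041, interval 288 to 8607).

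WNT7B, a WNT ligand, and the protein that exports WNT ligands were among the 15 largest higher gaps. The ligand had 0.208, 0.321 and 0.404 CPM in the controls and 0 in the library labelled knockdown 3, against 72.7 and 77.6 CPM (322-fold). WLS, which carries WNT ligands to the cell surface, had 0.764, 0.178 and 2.95 CPM in the controls and 0.0941 CPM in the library labelled knockdown 3, against 97.5 and 108 CPM (103-fold, and 297-fold without control 3). Control 3 was the highest of the others for both genes, and still far below the low pair. GRHL3, a transcription factor of stratified epithelium, had 0 CPM in the others against 29.97 and 22.99 CPM (at least 1143-fold). CSGALNACT1, an enzyme of chondroitin sulfate synthesis, and MYBPC2, a myosin-binding protein of fast skeletal muscle, also had 0 in all 4 and were at least 1057-fold and 782-fold higher. The metallothionein gene MT1G had 0.218 CPM in control 3, 0 in the other three and 27.7 and 27.4 CPM in the low libraries, and it shares sequence with its family, so its counts are uncertain. SLC7A11-AS1 had at most 0.463 CPM against 28.2 and 32.6 CPM, but it lies antisense to another gene and the use of strand in counting is not given, so its value is uncertain.

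**Figure D2:**
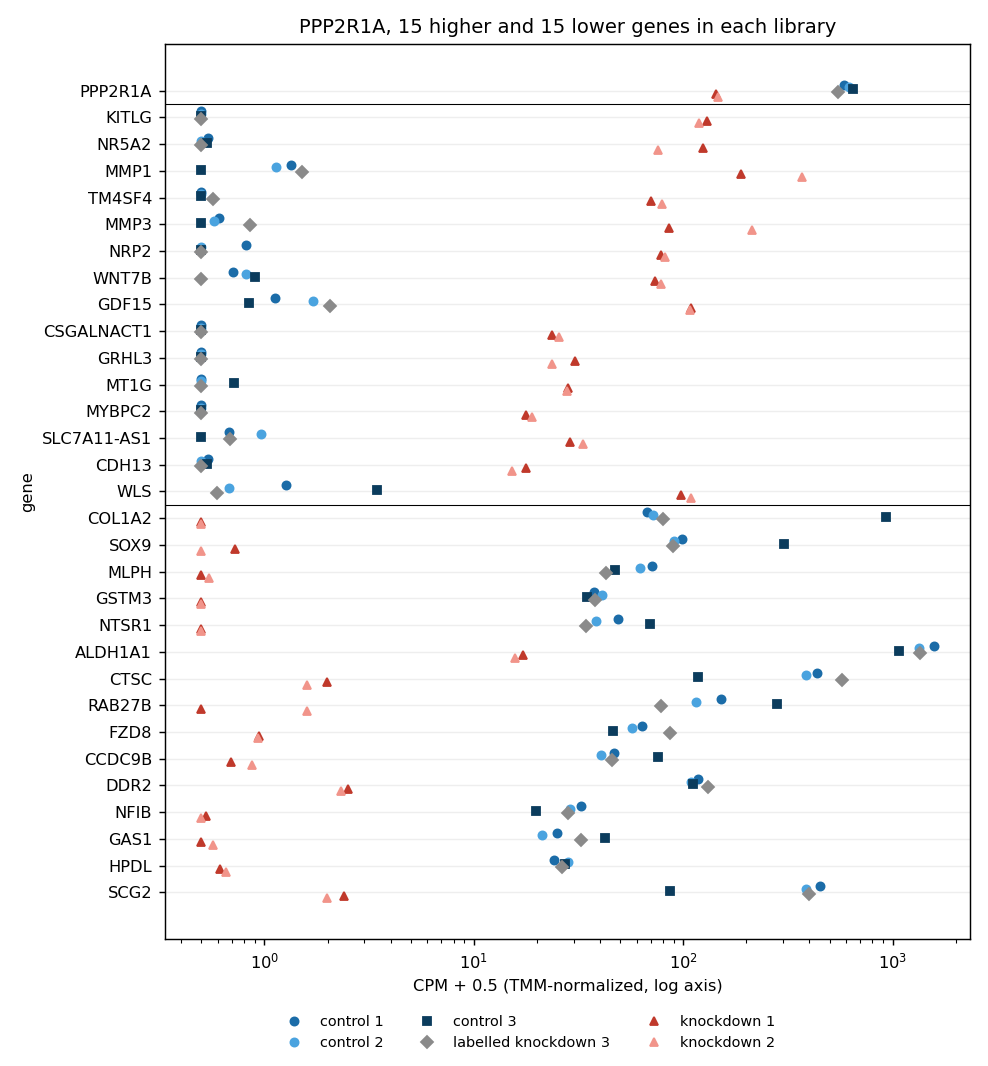
CPM + 0.5 (TMM-normalized, horizontal log axis) of PPP2R1A, the 15 genes with the largest higher gap and the 15 with the largest lower gap, with 1 point per library. Triangles are the low libraries, circles controls 1 and 2, squares control 3 and diamonds the library labelled knockdown 3, which lies far from the low pair in every gene shown, while control 3 stands apart from the rest in COL1A2, SOX9 and SCG2.

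The largest lower gaps held genes that were at or near 0 in the low libraries. COL1A2 encodes an alpha chain of fibrillar collagen I, and had 66.9, 71.1 and 925 CPM in the controls, 79.7 CPM in the library labelled knockdown 3 and 0 in both low libraries, at least 7717-fold lower. SOX9, a transcription factor of pancreatic progenitors and ducts, had 97.6, 89.4 and 302 CPM in the controls and 88.4 CPM in the library labelled knockdown 3, against 0.221 and 0 CPM (1309-fold). In both genes control 3 was several times above the remaining others, so the size of these ratios rests on it, while the gap does not. Without control 3 the SOX9 ratio was 833, and without knockdown 2 it was 655, since its few low counts were all in knockdown 1. NTSR1, the neurotensin receptor, had 33.6 to 69.1 CPM in the others against 0 (at least 1271-fold). GSTM3, a glutathione S-transferase, had 34.2 to 40.5 CPM against 0 (at least 1019-fold).

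Promoters on this side were unlike too. NTSR1 has 38 CG in the 250 bases before its RefSeq start (GRCh38.p14) and GSTM3 has 1, again in capitals.
NTSR1 (chr20:62708586-62708835, plus strand): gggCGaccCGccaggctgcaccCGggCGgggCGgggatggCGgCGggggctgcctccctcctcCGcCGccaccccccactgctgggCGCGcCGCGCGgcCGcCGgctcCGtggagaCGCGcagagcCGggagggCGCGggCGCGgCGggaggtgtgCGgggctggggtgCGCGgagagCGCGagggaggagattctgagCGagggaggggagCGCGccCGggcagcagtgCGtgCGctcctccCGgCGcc
GSTM3 (chr1:109741039-109741288, minus strand): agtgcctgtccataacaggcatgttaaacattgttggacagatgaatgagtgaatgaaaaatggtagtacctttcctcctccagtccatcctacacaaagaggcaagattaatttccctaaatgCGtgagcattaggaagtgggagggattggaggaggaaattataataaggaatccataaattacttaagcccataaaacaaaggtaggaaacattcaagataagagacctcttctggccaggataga

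ALDH1A1, a retinaldehyde dehydrogenase, was abundant in every other library, at 1572, 1342 and 1066 CPM in the controls and 1348 CPM in the library labelled knockdown 3, against 16.6 and 15.2 CPM in the low libraries (83.8-fold). DDR2, a receptor tyrosine kinase that binds collagen, had 109 to 131 CPM in the others against 2.01 and 1.83 CPM (60.9-fold). These 4 others agreed closely for DDR2, with 117 ± 10.2 CPM (SD, n = 4). The protease gene CTSC had 433, 384 and 117 CPM in the controls and 570 CPM in the library labelled knockdown 3 against 1.49 and 1.09 CPM (292-fold). SCG2, a secretogranin of dense-core vesicles, had 449, 386 and 86.0 CPM in the controls and 399 CPM in the library labelled knockdown 3 against 1.90 and 1.48 CPM (195-fold). For CTSC and SCG2 control 3 was the lowest of the others, on the side of the low pair, and still far above it.

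Vesicle genes and regulators followed. RAB27B, a GTPase of secretory vesicles, had 77.6 to 281 CPM in the others against 0 and 1.09 CPM (286-fold, and 143-fold without knockdown 1), and MLPH, a melanosome protein that binds a close relative of it, had 42.3 to 70.0 CPM against 0 and 0.0436 CPM (ratio 2201, interval 609 to 18178). The WNT receptor FZD8 had 45.5 to 86.0 CPM against 0.441 and 0.436 CPM (143-fold). It shares its assembled locus with MIR4683, so its counts are uncertain. NFIB, a nuclear factor I protein, had 19.4 to 31.8 CPM against 0.0276 and 0 CPM (ratio 2190, interval 393 to 86516). GAS1, a co-receptor of hedgehog ligands, had 20.6 to 41.9 CPM against 0 and 0.0654 CPM (ratio 831, interval 284 to 4033). HPDL and CCDC9B were 198-fold and 183-fold lower. In none of these genes did the groups overlap, which is what the rule asked for.

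Among PP2A genes other than the target the gaps were small. Of 33 measured subunits and regulators, 5 were higher and 7 lower in both low libraries under TMM scaling. These were 15.2% and 21.2%, against 22.1% and 19.6% of all genes. With library size alone 9 were higher and 4 lower, so no direction is given for the family. PPP2R1A held the only gap of 2-fold. PPP2R2C, a regulatory B subunit, had 13.4, 14.7 and 2.18 CPM in the controls and 16.1 CPM in the library labelled knockdown 3 against 32.6 and 33.5 CPM (2.85-fold). The regulatory subunit PPP2R5D had 136 to 170 CPM against 92.0 and 85.3 CPM (1.74-fold). INTS6, through which PP2A joins Integrator, had 31.3 to 35.3 CPM against 50.6 and 46.5 CPM (1.47-fold), and CIP2A, an inhibitor of PP2A, 81.5 to 88.8 CPM against 106 and 118 CPM (1.32-fold). For PPP2R3B, PPP2R2D, STRN, SET, BOD1, PPP4C and PPP2CB the gap was 0.22 or less on the log2 scale, and PPP2R2D, BOD1 and PPP4C left the list under library size alone.

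The catalytic subunit PPP2CA and its binding protein TIPRL were set apart by control 3. PPP2CA had 507 and 533 CPM in controls 1 and 2 and 357 and 383 CPM in the low libraries, but 375 CPM in control 3. TIPRL had 111 and 115 CPM in controls 1 and 2 and 81.4 and 84.6 CPM in the low libraries, but 81.9 CPM in control 3. Control 3 lay between the low libraries in both genes. The second scaffold, PPP2R1B, had 68.1 to 121 CPM in the others and 76.0 and 83.5 CPM in the low libraries, within the range.

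Such genes were counted over all calls of a comparison with controls 1 and 2 alone. With edgeR's quasi-likelihood test over 15596 genes and Benjamini-Hochberg adjustment, 1115 genes (7.15%) were called higher and 999 (6.41%) lower in the low libraries. Of these 2114 genes, 1831 (86.6%) also lay outside the range of control 3 and the library labelled knockdown 3. Control 3 alone broke the range for 231 (10.9%), the library labelled knockdown 3 alone for 29 (1.37%), and both for 23 (1.09%). The share that met the rule was 89.3% of the higher and 83.6% of the lower calls. The rule and the test share 4 libraries, so this share is a count and no support. With the replicate number as a block edgeR called 0 genes, with 5162 at an unadjusted p under 0.05. With any 1 of those 4 libraries left out edgeR called 0 genes, with 3377 to 4797 at an unadjusted p under 0.05. DESeq2, run on all 4, called 3294 genes.

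**Figure D3:**
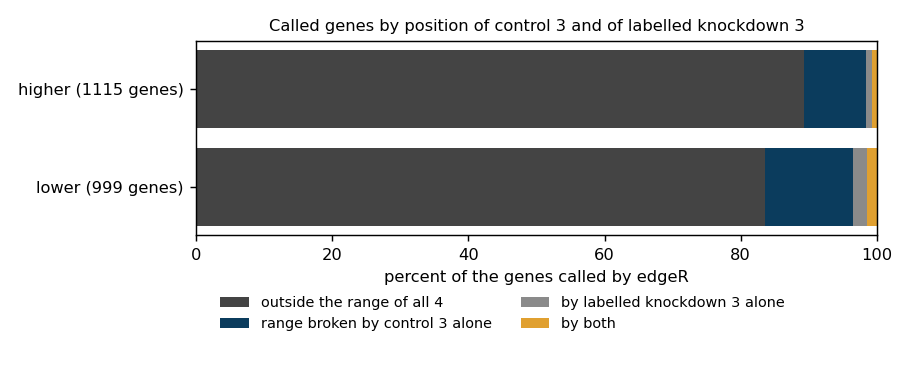
Percent (horizontal) of the genes called by edgeR between the low libraries and controls 1 and 2, split by whether control 3, the library labelled knockdown 3 or both reached or passed the nearest low library. Of the higher calls 89.3% and of the lower calls 83.6% lay outside the range of all 4 others, and control 3 alone broke the range for 9.15% and 12.9%.

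Genes at the top of that split show what a single control library carried. PDE5A, the phosphodiesterase of cyclic GMP, had 235 and 218 CPM in controls 1 and 2 and 190 CPM in the library labelled knockdown 3, but 0.124 CPM in control 3, beside 0.0827 and 0.174 CPM in the low libraries. CARD16 and PPP1R14A, an inhibitor of myosin phosphatase, likewise had 0 in control 3 and in both low libraries. JAG1, a ligand of Notch receptors, had 7.23 and 5.73 CPM in controls 1 and 2 and 7.77 CPM in the library labelled knockdown 3, but 240.1 CPM in control 3, above the 228 and 173 CPM of the low libraries. SHROOM3, an actin-binding protein, had 40.5 CPM in control 3 against 17.2 and 36.5 CPM in the low libraries. For these 5 genes control 3 stood with the low libraries, while its PPP2R1A level was 643 CPM.

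Fewer genes were broken by the library labelled knockdown 3. SIPA1L2 had 13.8, 10.5 and 1.65 CPM in the controls and 1.54 and 1.53 CPM in the low libraries, but 0.424 CPM in the library labelled knockdown 3. BICRAL had 0.243, 0.214 and 3.98 CPM in the controls, 7.83 and 5.10 CPM in the low libraries and 7.70 CPM in the library labelled knockdown 3. MIR4683, ARPIN-AP3S2 and BLOC1S5-TXNDC5 completed the top 5 and share their locus or their exons with other genes, so their counts are uncertain. Where both libraries broke the range, ADGRL1, an adhesion receptor, had 0.278 and 0.321 CPM in controls 1 and 2 against 26.4 and 23.3 CPM in the low libraries, but 81.5 CPM in control 3 and 50.6 CPM in the library labelled knockdown 3. NELFCD, a subunit of the negative elongation factor, had 0 in controls 1 and 2, 3.94 and 5.49 CPM in the low libraries, 10.1 CPM in control 3 and 5.27 CPM in the library labelled knockdown 3. NRDE2, NUP210 and SNHG31 were of the same kind.

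Epithelial genes were mostly on the higher side. Of 18 measured, 12 (66.7%) were higher and 3 (16.7%) lower, against 22.1% and 19.6% of all genes, and their median log2 difference was 0.88 against 0.02. KRT8, a keratin of simple epithelia, had 763, 890 and 2401 CPM in the controls and 742 CPM in the library labelled knockdown 3 against 4984 and 5800 CPM. Its partner KRT18 had 563, 683 and 1555 CPM and 556 CPM in the same order, against 3064 and 3692 CPM. Both keratins have many pseudogenes that can share reads. The tight junction gene CLDN4 had 6.08 to 16.6 CPM in the others against 119 and 104 CPM, and the desmosome gene PKP2 had 0, 0.0712 and 34.5 CPM in the controls and 0 in the library labelled knockdown 3 against 76.5 and 111 CPM. Control 3 was the highest of the others for these 4 genes. KRT5, a basal keratin, had 0 CPM in the others against 3.31 and 4.34 CPM. The other way, EHF, an epithelial ETS factor, had 5.56 to 22.6 CPM in the others and 0 in the low libraries (at least 312-fold), and KRT19 had 42.5 to 77.1 CPM against 15.7 and 11.9 CPM.

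Mesenchymal genes and collagens were divided. Of 13 measured mesenchymal genes and EMT factors, 2 were higher and 5 lower (15.4% and 38.5%, against 22.1% and 19.6% of all genes). VIM, the intermediate filament of mesenchymal cells, had 7254, 9832 and 10546 CPM in the controls and 8578 CPM in the library labelled knockdown 3 against 3736 and 4864 CPM (2.11-fold). FBN1, which forms microfibrils, had a higher gap of 1.01 and the EMT factor SNAI2 a lower gap of 0.35 on the log2 scale. Of 17 collagen chains 3 were higher and 5 lower (17.6% and 29.4%). Besides COL1A2, COL6A3 had 5.32 to 22.1 CPM and COL5A3 1.15 to 2.68 CPM in the others and 0 in the low libraries. COL17A1, the collagen of hemidesmosomes, had 3.36 to 33.9 CPM against 124 and 102 CPM (4.76-fold).

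Integrins and laminins had 9 of 18 measured genes on the higher side and 1 on the lower (50.0% and 5.56%, against 22.1% and 19.6% of all genes). These counts were 5 and 1 where the mean had to reach 5 CPM. LAMB3 and LAMA3 are laminin chains of epithelial basement membranes. LAMB3 had 0 to 1.77 CPM against 4.41 and 7.17 CPM, and LAMA3 had 0 to 1.29 CPM against 3.83 and 3.66 CPM. ITGAV, the alpha chain of RGD-binding integrins, had 42.7 to 73.2 CPM against 206 and 133 CPM (3.20-fold).

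Cytokines and growth factors had 12 of 28 measured genes higher, 8 of them by a 2-fold gap, and 6 lower. These were 42.9% and 21.4%, against 22.1% and 19.6% of all genes, so the lower share was near the background. Of all genes 3.08% were higher by a 2-fold gap. PDGFA had 6.43 to 14.3 CPM against 55.3 and 66.9 CPM (5.23-fold), and PDGFB 0.938 to 1.18 CPM, with 6.03 CPM in control 3, against 21.0 and 19.4 CPM (8.75-fold, and 18.9-fold without control 3). LIF, an interleukin-6 family cytokine named here after its values were seen, had 0 CPM in controls 1 and 2, but 27.4 CPM in control 3 and 17.3 CPM in the library labelled knockdown 3, against 74.5 and 74.4 CPM in the low libraries. A gene at 0 in controls 1 and 2 was thus separated from control 3 by a gap of 1.43 on the log2 scale. CXCL8, a neutrophil chemokine, was the one lower gene with a 2-fold gap, at 45.8 to 145 CPM against 21.0 and 10.2 CPM.

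Receptor tyrosine kinases had 8 of 27 higher and 6 lower (29.6% and 22.2%), close to the 22.1% and 19.6% of all genes. MET, the receptor of hepatocyte growth factor, had 5.21, 9.51 and 6.06 CPM in the controls and 3.22 CPM in the library labelled knockdown 3 against 65.7 and 50.3 CPM (9.66-fold). FLT1, a VEGF receptor, had 2 counts in the library labelled knockdown 3 (0.0471 CPM) and 0 in the controls against 10.3 and 17.5 CPM. RET had 3.79 to 5.15 CPM against 0 and 0.501 CPM (17.6-fold, and 8.78-fold without knockdown 1). Of 27 WNT genes 12 were higher and 4 lower (44.4% and 14.8%), and 9 and 3 where the mean had to reach 5 CPM. WNT4 had 0.243 to 0.871 CPM against 4.30 and 3.38 CPM (9.17-fold, and 14.3-fold without the library labelled knockdown 3), and the receptors FZD7 and FZD3 had gaps of 1.40 and 1.41 on the log2 scale. DKK1, a secreted WNT inhibitor, had 56.5 to 70.0 CPM against 9.32 and 7.78 CPM (7.51-fold lower). Neither ligands nor receptors were all on 1 side, since WNT9A and FZD1 also lay lower, by gaps of 0.40 and 0.70.

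Metalloproteases and their inhibitors had 9 of 23 higher and 4 lower (39.1% and 17.4%, against 22.1% and 19.6% of all genes), and 5 and 2 where the mean had to reach 5 CPM, with ADAM23 at 0.280 to 0.855 CPM against 15.1 and 18.2 CPM (30.5-fold) and MMP10 at 0 against 1.79 and 4.79 CPM. Metallothioneins and zinc transporters had 2 of 14 higher and 3 lower (14.3% and 21.4%). Besides MT1G at the top of the higher side, MT1X and MT1E lay lower by gaps of 0.19 and 0.18 on the log2 scale, and MTF1, the zinc-sensing factor of this family, had 48.3 to 59.8 CPM against 37.6 and 34.1 CPM (1.49-fold).

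Glutathione S-transferases and aldehyde dehydrogenases had 13 of 27 genes lower (48.1%, against 19.6% of all genes) and 8 higher (29.6%, against 22.1%), and 10 lower and 8 higher with library size alone. All 6 members with a 2-fold gap were lower, out of 27 measured, while 1.79% of all genes were lower by such a gap. Besides ALDH1A1 and GSTM3 these were GSTM1, at 31.1 to 41.4 CPM against 0.386 and 0.0872 CPM (147-fold, and 90.3-fold or 399.9-fold with 1 low library left out), GSTM2 (ratio 224, interval 76.4 to 1087), GSTM5 and ALDH4A1. The GSTM genes are close copies, and GSTM1 and GSTM2 share 1 assembled locus in the table, so their counts are uncertain. These 4 GSTM genes are neighbours on chromosome 1, where ALDH4A1 also lies and 34.2% of the measured genes were lower. The part of this position was not tested. Glucose uptake and glycolysis had 9 of 24 lower and 2 higher (37.5% and 8.33%), and 8 and 4 with library size alone. The glucose transporter SLC2A1 had 159, 162 and 161 CPM in the controls and 156 CPM in the library labelled knockdown 3 against 66.5 and 66.2 CPM (2.40-fold). The hexokinases HK1 and HK2 were 1.72-fold and 1.59-fold lower and the lactate transporter SLC16A1 1.58-fold. The 4 others lay close together for SLC2A1, at 159 ± 2.75 CPM (SD, n = 4). SLC2A1 and SLC16A1 lie on chromosome 1 and HK1 on chromosome 10, where 34.2% and 46.2% of the measured genes were lower. HK2 lies on chromosome 2, where 11.0% were lower.

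Housekeeping families differed by little. Of 79 cytosolic ribosomal protein genes 50 (63.3%, against 19.6% of all genes) lay below all 4 others and 1 above under TMM scaling, and 23 below and 5 above with library size alone. None had a 2-fold gap. RPS12 had 802 to 955 CPM against 408 and 458 CPM (2.05-fold). RPS10 and RPL5 were 1.67-fold and 1.66-fold lower. Ribosomal protein genes have many processed copies, which can share their reads. Of 73 nuclear genes of oxidative phosphorylation 20 were lower and 4 higher (27.4% and 5.48%), but 12 lower and 13 higher with library size alone. Of 45 core spliceosome genes 15 were lower and 2 higher (33.3% and 4.44%), but 10 and 9 with library size alone. Of all genes 19.6% were lower and 22.1% higher. NDUFB11, a complex I subunit, was 2.08-fold lower and UQCRH, a complex III subunit, 1.85-fold. NDUFS5 and ATP5F1C were 1.77-fold and 1.60-fold lower. LSM2, SNRPC, PRPF38A and SF3A3 were the spliceosome genes with the widest gaps, at 2.24-fold, 1.67-fold, 1.53-fold and 1.49-fold. RPS12, RPS10, LSM2 and SNRPC lie on chromosome 6, and RPL5, UQCRH, NDUFS5, PRPF38A and SF3A3 on chromosome 1. ATP5F1C lies on chromosome 10 and NDUFB11 on X. Of the measured genes on chromosomes 6, 1, 10 and X, 44.6%, 34.2%, 46.2% and 27.3% were lower, against 19.6% of all genes. The part of chromosome position in these families was not tested.

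RNA polymerase II pausing and Integrator genes were near the background. Of 43 genes 8 were higher (18.6%, against 22.1% of all genes) and 9 lower (20.9%, against 19.6%). With library size alone these counts were 13 and 6. LARP7, which binds the 7SK RNA, had 8.80 to 11.1 CPM against 20.5 and 19.2 CPM (2.09-fold), INTS14 had 10.1 to 35.1 CPM against 6.42 and 6.82 CPM, and INTS11, the endonuclease of Integrator, was 1.41-fold lower. Replication and mitosis genes had 6 of 35 higher and 8 lower (17.1% and 22.9%), shares near those of all genes. With library size alone 9 were higher and 5 lower. CCNE1, a cyclin of the G1 to S transition, had 11.0 to 20.1 CPM against 43.0 and 35.7 CPM (2.28-fold) and CCNE2 was 1.32-fold higher, while the kinesin KIF11 and the licensing factor CDT1 were 1.39-fold and 1.67-fold lower.

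Genes of the ERK and AP-1 response had 12 of 29 higher and 5 lower (41.4% and 17.2%, against 22.1% and 19.6% of all genes), the lower share near the background. FOS had 2.09 to 2.77 CPM against 7.44 and 6.80 CPM (2.87-fold), and DUSP4, a phosphatase of ERK, 0.342 to 1.39 CPM against 3.67 and 4.07 CPM (3.76-fold). ETV1, an ETS factor, lay the other way, at 9.95 to 17.5 CPM against 0.165 and 0.0872 CPM (119-fold), as did FOSL2 (2.23-fold). Interferon and antigen presentation genes had 14 of 32 higher and 4 lower (43.8% and 12.5%), and 17 and 0 with library size alone, which leaves none of the lower side. These counts were 10 and 4 where the mean had to reach 5 CPM. OAS3, an interferon-induced sensor, had 2.83 to 5.98 CPM against 23.5 and 22.9 CPM (5.09-fold). HLA-C had 4.26 to 13.0 CPM against 44.1 and 51.2 CPM, with reads that other HLA genes can share, BST2 0 to 1.21 CPM against 6.01 and 2.96 CPM, and ISG20 was 2.62-fold higher. Of 9 measured transcription factors of pancreas and endoderm 2 were higher and 2 lower (22.2% each), near the shares of all genes. ONECUT2 had 8.19 to 10.8 CPM against 16.3 and 17.9 CPM (1.75-fold), HHEX had 12.2 to 17.3 CPM against 10.5 and 10.7 CPM, and NR5A2 and SOX9 stood at opposite ends.

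Many markers of other cell types did not reach a mean of 1 CPM. Of all genes 22.1% were higher and 19.6% lower, and these lists hold too few measured genes for their shares to be set against that. Of 4 measured fibroblast and pericyte markers 2 were higher (ACTA2, at 0 to 0.808 CPM against 3.36 and 2.31 CPM, and COL3A1, at 10.9 to 58.7 CPM against 107 and 86.8 CPM) and COL1A2 was lower. Of 2 measured endothelial markers ESAM lay within the range and CDH5, the cadherin of endothelial junctions, had 0 to 3.65 CPM in the others against 59.0 and 37.1 CPM (21.7-fold), while PECAM1, KDR, TEK and TIE1 had 0 counts in all libraries. Below a mean of 1 CPM, VWF had at most 2 counts in each of the others and 56 and 65 in the low libraries. CLDN5 had 5 to 14 counts against 9 and 23. The summed level of 10 endothelial markers was 40.7 to 62.6 CPM in the low libraries and 1.52 to 5.79 CPM in the others, and CDH5 alone gave most of the low libraries' sum. The sum of 12 fibroblast and pericyte markers was 746 to 877 CPM in the low libraries and 570 to 1225 CPM in the others. The remaining measured marker of this list, RGS5, lay within the range, with 7752 to 30090 counts per library. RGS5 alone gave most of the low libraries' sum. Of 7 neural and neuroendocrine markers 1 was higher (CHGB, 6.91-fold) and 3 lower, SCG2, TUBB3 (1.43-fold) and SYP (1.84-fold), of which SYP left the list under library size alone. The sum of 14 neural markers was 272 to 317 CPM in the low libraries and 588 to 829 CPM in the others. The 1 measured leukocyte marker, CD68, lay within the range, and no acinar or hormone gene reached a mean of 1 CPM. The part of such cells in the results was not tested.

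Genes of the 2 directions were spread unevenly over the genome. Chromosome Y, with 5 measured genes, is left out here. On chromosomes 10, 6 and 1, 46.2%, 44.6% and 34.2% of the measured genes were lower, against 19.6% of all genes, and with library size alone these were again the 3 highest shares, at 37.1%, 34.8% and 26.2%. The higher share was largest on chromosomes 2 and 8, at 33.9% and 32.9%, against 22.1%, and lowest on chromosome 10, at 9.60%. With a 2-fold gap the picture changed: chromosome X had 23 of 444 genes lower (5.18%, against 1.79%), and chromosome 8 had 0 of 428 lower and 22 higher (5.14%, against 3.08%). That higher share was exceeded on chromosomes 18 and 12, at 7.78% and 5.68%.

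**Figure D4:**
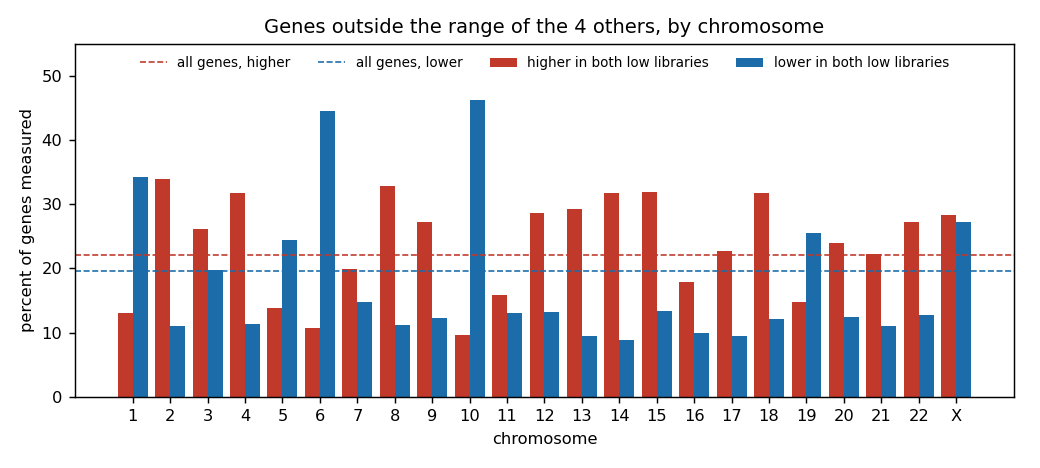
Percent of measured genes on each chromosome (horizontal, Y left out) that lay above (left bars) or below (right bars) all 4 others, with dashed lines at the shares of all genes, 22.1% and 19.6%. Chromosomes 1, 6 and 10 stand out on the lower side.

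Of these 23 X chromosome genes 14 lay in 1 stretch and 9 elsewhere on X. From FTSJ1 to CCDC22, a stretch chosen after its values were seen, 24 of 26 measured genes (92.3%) were lower, 14 of them by a 2-fold gap, against 23.2% of the 418 other X genes. The median log2 difference in the stretch was -1.37 (quartiles -1.65 and -1.18), and 0.07 in the rest of X. Against the mean of controls 1 and 2, the stretch had medians of -1.41 and -1.42 in the low libraries, -0.15 in control 3 and 0.05 in the library labelled knockdown 3. Its genes have unlike roles. PORCN, which lipidates WNT ligands, had 16.0 to 26.2 CPM in the others against 3.31 and 3.09 CPM. The histone methyltransferase SUV39H1 had 102 to 114 CPM against 30.4 and 35.7 CPM, PLP2 had 300 to 343 CPM against 65.6 and 81.5 CPM, and the transcription factor TFE3 had 163 to 243 CPM against 61.2 and 68.1 CPM. KCND1 and CCDC120 were the exceptions, both lowest in control 3.

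Smaller groups of neighbours were found on other chromosomes. Genes with a 2-fold gap in the same direction stood next to each other, among measured genes, in 34 higher runs (76 genes) and 22 lower runs (54 genes). Whether this is more than the same numbers of genes would give at random positions was not tested. Higher runs held the ligands AREG and BTC with PARM1 and LINC02562 on chromosome 4, the proteases MMP10, MMP1 and MMP3 on chromosome 11, CEP290, TMTC3 and KITLG on chromosome 12, and CAV1 with MET on chromosome 7. CAV1, the coat protein of caveolae, had 81.7 to 186 CPM in the others against 468 and 467 CPM. The T-box factor EOMES, next to LINC02084 on chromosome 3, had 0.373 to 7.05 CPM against 74.2 and 67.8 CPM. Lower runs held GSTM2, GSTM1, GSTM5 and GSTM3 on chromosome 1, COL6A3, MLPH and RAB17 on chromosome 2, TUBB2A and TUBB2B on chromosome 6, and ALDH1A1 with ANXA1 on chromosome 9. TUBB2A, a beta tubulin whose sequence is close to that of TUBB2B, had 386 to 801 CPM in the others against 48.9 and 61.5 CPM.

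In windows of 20 neighbouring genes, which overlap, 104 of 12858 had at least 15 lower genes and 33 at least 15 higher. The zinc finger cluster of chromosome 19 from ZNF529-AS1 to ZNF793 had 18 of 20 lower with a median log2 difference of -0.76, and these genes are close copies whose reads may be shared. On the higher side, the X genes from EMD to F8A1 had 17 of 20 higher (median 0.51) and the chromosome 2 genes from CWC22 to WDR75 had 15 of 20 (median 0.81). These windows were picked for their counts.

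Promoters of the 2-fold genes held fewer CpG sites than those of all genes. Of 10153 measured genes with a RefSeq promoter (250 bases before and 50 after the start, GRCh38.p14), 85.4% had a ratio of observed to expected CpG of at least 0.6. This share was 67.3% of 297 higher and 70.6% of 197 lower genes with a 2-fold gap, and 85.9% of 3720 genes that met the rule with a smaller gap. The share also differed with level: among genes with a mean of 1 to 10 CPM the share was 75.2% of all, 64.4% of the higher and 63.0% of the lower 2-fold genes. From 10 CPM up it was 89.0% of all, 71.8% of the higher and 93 of 124 of the lower. Of 12 higher genes with at most 3 counts in the 4 others 3 had this ratio, and of 30 lower genes with at most 3 counts in the low libraries 53.3%. The 4 promoters printed above span this range on both sides.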

How the data were processed

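Whole-number read counts per gene were deposited by the authors for 6 libraries in a table of 42540 rows, 17321 of them at 0 in every library. The libraries were made with a TruSeq RNA kit. Per the labels, FastQC, STAR and StringTie were used. Settings, genome build, annotation and use of strand are not stated in any source read for this work. StringTie derives counts from coverage, so these counts are estimates, and 25316 rows carry its locus names, where overlapping genes cannot be separated.

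From this table, 159 rows that repeated another row were left out, and CPM were computed with TMM factors over all 6 libraries (edgeR 4.0.16, R 4.3.3). Genes were kept where the mean over the 6 libraries reached 1 CPM. The gap is the distance between the nearest low and the nearest other library in log2 of CPM + 0.5. Ratios are of group means, and bounds take a floor of 3 counts over a group at 0, with 95% intervals on ratios that rest on 1 to 3 counts. Knockdown 1 and 2 were compared with controls 1 and 2 by edgeR's quasi-likelihood test at an adjusted p of 0.05. The study describes its replicates as independent and made over several weeks, from 1 control and 1 knockdown population, so that p measures the spread between collections and not between separate clones or guides. Total counts of 28499214 to 45040033 limit precision mainly for genes with few counts. DESeq2 1.42.0, other scalings, filters and pseudocounts, a replicate block and each library left out in turn were alternatives. The scripts were tested on simulated data.

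Members and 25 gene lists were chosen with earlier results of these data known. Genes named are PPP2R1A, the 15 largest gaps in each direction with a mean of at least 5 CPM on the side where they are high, up to 4 of each list by gap, all PP2A genes that met the rule, 5 called genes for each way control 3 or the library labelled knockdown 3 broke the range, and 2 on either side of the limit. KRT8, KRT18, KRT19, PKP2, LIF, CXCL8, FZD3, FZD7, PPP2CA, TIPRL, PPP2R1B, KIT, CDH1, EPCAM, CD68, ESAM, VWF, CLDN5, RGS5, WNT9A, FZD1, GSTM5, ALDH4A1 and the genes of chromosome stretches were named after their values were seen. Chromosomes of 13301 of 13359 genes and promoters of 10153 came from RefSeq by symbol. The guide was placed on GRCh38 with GENCODE. Python 3.11.15, pandas 2.3.3 and numpy 2.4.6 were used. A few genes that these rules name are not reported here.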

Additional observations from a re-analysis of the deposited data

Results flagged for a closer look

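In 6 of 31 genes (PPP2R1A and the 30 genes with the largest gaps) 1 of the 4 libraries other than the low pair lay far from the other three by Dixon's test on log2 of CPM + 0.5 at its 95% critical value. Chance alone gives about 1 in 20, and groups of 3 libraries by label were not tested. Control 3 was the library apart in 4 genes. It had 925 CPM of COL1A2 against 66.9 to 79.7 CPM in the other three, 302 CPM of SOX9 against 88.4 to 97.6 CPM, 86.0 CPM of SCG2 against 386 to 449 CPM, and 0.218 CPM of MT1G against 0. The library labelled knockdown 3 had 0.0706 CPM of TM4SF4 against 0, and control 1 had 0.313 CPM of NRP2 against 0, both from a few reads. For MT1G, TM4SF4 and NRP2 the other three libraries were at 0, so that any reads in the remaining one meet the rule by construction, and these 3 say nothing of the library. All 6 genes lay outside the range of the 4 libraries on the side given in the report with this library included.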

How the results depend on the processing

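Of 5579 genes outside the range, other scalings, filters and kept repeated rows gave 4438 to 7594, and leaving out 1 library gave 6085 to 7596, which a rule over fewer libraries must raise. The 651 genes with a 2-fold gap became 415 with a mean of at least 5 CPM, 218 at 4-fold and 484 with a pseudocount of 2 CPM, and 707 to 902 without 1 library. Library size alone gave 697, of which 626 were shared. Of 113 named genes, 6 lost their gap under library size alone (log2 gaps of -0.0028 for PPP2R2D, -0.1114 for BOD1, -0.1302 for PPP4C, -0.0991 for SYP, -0.1332 for ZNF124 and -0.1336 for DAXX). The other settings tried on named genes were a larger pseudocount and 1 library left out. Neither can turn the sign of a gap, so they say nothing of whether a gap would be lost.

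The 2114 edgeR calls (1831 of them outside the range) were 2150 with library size alone, with 1406 higher and 744 lower in place of 1115 and 999, and 2107 with DESeq2 size factors. Without a filter beyond 1 count edgeR called 1380 (1236 outside the range). DESeq2 called 3294 (2743), of which 2089 were shared. Over all 6 libraries by label edgeR called 1 gene, MIR4683, and 0 outside the range, with 1267 at an unadjusted p under 0.05. Leaving out control 1, control 2, knockdown 1 or knockdown 2 left 0 to 0 calls and 0 to 0 outside the range, with 3377 to 4797 at an unadjusted p under 0.05 and a smallest adjusted p of 0.0517 to 0.0617 from edgeR, the lone library being assumed to vary like the other group. DESeq2 was not run on these.

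With the replicate number as a block edgeR called 0 genes and 0 outside the range (smallest adjusted p 0.063, 5162 at an unadjusted p under 0.05). Control and knockdown libraries carry the same numbers in their names, and the study collected samples over several weeks, but the labels do not state that a shared number marks a shared collection. Over 13359 genes the deviations of the 2 pairs had a correlation of 0.0716. Genes with few counts on the lower side, 277 higher and 211 lower members under a mean of 1 CPM, have the least certain ratios.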
